A study of Mus musculus with 6 samples.

Results

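MHC class I molecules carry peptides from inside the cell to its surface, and the 10 genes described here encode the molecule itself and the machinery that supplies it with peptides. The genes are B2m, H2-K1, H2-D1, H2-T23, Tap1, Tap2, Tapbp, Psmb8, Psmb9 and Psmb10, taken by symbol from the 25239 rows of the gene table, where all 10 were found. Libraries came from mouse primary pulmonary fibroblasts, cells grown out of lung tissue. The 3 senescent libraries are labelled Nutlin 3a-induced senescent, Nutlin 3a being an inhibitor of the binding of Mdm2 to p53. They are set against 3 libraries labelled Quiescence. Per the labels' protocols, senescence was induced by 16 hours of RO3306, a Cdk1 inhibitor, and 48 hours of Nutlin 3a. The Plk1 inhibitor BI-2536 followed at 100 nM to remove dividing cells, for 12 days in total. The quiescent samples carry the same text; the sources used here do not say how quiescence was reached. Both groups grew in DMEM with 10% serum at 5% oxygen. Strain, sex, age and the number of animals are not given either, so p-values measure the spread between these libraries only, which may be technical.

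A class I molecule is a membrane-bound heavy chain paired with the light chain beta-2-microglobulin, and it is stable at the surface only with a peptide in its groove. Peptides are cut in the cytosol by the proteasome, carried into the endoplasmic reticulum by the transporter TAP, and loaded there with the help of tapasin. Interferon-gamma induces the immunosubunits encoded by Psmb8, Psmb9 and Psmb10, which take the place of the constitutive catalytic subunits in new proteasomes, and resting fibroblasts are known to hold mainly the constitutive form. IRF1, NLRC5 and NF-kappa B are known activators of class I genes.

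Among the 10 members, the genes for the molecule and the genes for its peptide supply moved in opposite directions. The supply genes here are Tap1, Tap2, Tapbp, Psmb8, Psmb9 and Psmb10 only. Genes of the constitutive proteasome, which also cuts peptides, are not among them and rose, as described below. All 4 genes of the molecule (B2m, H2-K1, H2-D1, H2-T23) rose in senescent libraries, by 1.51-fold to 1.59-fold, and all 6 supply genes fell. Tap1 was 2.43-fold lower and Psmb8 2.29-fold lower in senescent libraries. In all, 10 of 10 members passed edgeR's quasi-likelihood test at an adjusted p under 0.05, where 74.5% of all 14065 tested genes passed. By direction, 4 members passed as higher and 6 as lower, against 36.7% of tested genes passing as higher and 37.8% as lower. The median log2 fold change was 0.62 over the 4 genes of the molecule and -1.01 over the 6 supply genes, beside -0.02 over all tested genes. In all 10 genes the senescent and quiescent libraries did not overlap in CPM, as for 78.3% of tested genes. All senescent libraries lay above all quiescent ones for 4 members and 38.4% of tested genes, and below them for 6 members and 39.9% of tested genes. Psmb9 is in all these counts, although it met the filter on low counts through the quiescent libraries only, which favoured a call as lower.

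Levels are given as CPM, a gene's share of the library's counts scaled to a common size, with totals adjusted by TMM, which assumes that most genes do not change. Libraries held 93736593 to 109706025 counts over all gene rows, and 79.8% to 82.8% of them lay in the rows Rn45s, Lars2 and Mir6236, so CPM values look low; 18219831 to 21386546 counts lay outside these rows. Scaling by library totals alone put the median of all tested genes at -0.32, and the 4 genes of the molecule then had log2 fold changes of 0.30 to 0.37, still past the test. The 9 fibroblast markers summed to 4033 to 4470 CPM in senescent and 4820 to 4959 CPM in quiescent libraries. Of 11 macrophage and dendritic cell markers, 5 were tested and all 5 rose. Cd14 averaged 6.88 CPM in senescent and 2.31 CPM in quiescent libraries, and Lyz2 2.52 and 0.779 CPM. In the same order, Csf1r averaged 1.37 and 0.232 CPM, Cd68 1.16 and 0.666 CPM, and Mrc1 0.237 and 0.0847 CPM. The 11 summed to 10.9 to 14.4 CPM in senescent and 3.99 to 4.25 CPM in quiescent libraries. Among those not tested, Ptprc (at or under 0.0902 CPM), Adgre1, Itgax and Itgam (at or under 0.360 CPM) were also higher in every senescent library than in any quiescent one. Marco overlapped between the groups and Flt3 was at 0. The 10 T, NK and B cell markers summed to 0.0778 to 0.120 CPM in senescent and 0.132 to 0.177 CPM in quiescent libraries, with Cd3e, Cd3g, Ncr1 and Klrb1c among those at 0. Of the 9 fibroblast markers 3 rose and 5 fell. The 6 endothelial markers summed to 3.42 to 4.99 CPM in senescent and 5.15 to 5.67 CPM in quiescent libraries, with Cdh5 higher (1.16 and 0.234 CPM) and Tek lower (0.534 and 3.40 CPM) in senescent than in quiescent libraries. The 8 epithelial markers summed to 6.11 to 7.92 CPM in senescent and 1.246 to 1.299 CPM in quiescent libraries, of which Krt19 averaged 6.60 CPM in senescent and 0.847 CPM in quiescent libraries. The 5 mesothelial markers, which include Krt19, summed to 8.81 to 10.9 CPM in senescent and 6.05 to 6.89 CPM in quiescent libraries. Without Krt19 they summed to 2.76 to 3.70 CPM in senescent and 5.23 to 5.99 CPM in quiescent libraries, with Upk3b and Msln lower in senescent libraries. The part of such cells in the results was not tested, and in bulk RNA fewer cells of a type and less RNA per cell cannot be told apart.

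**Figure D1:**
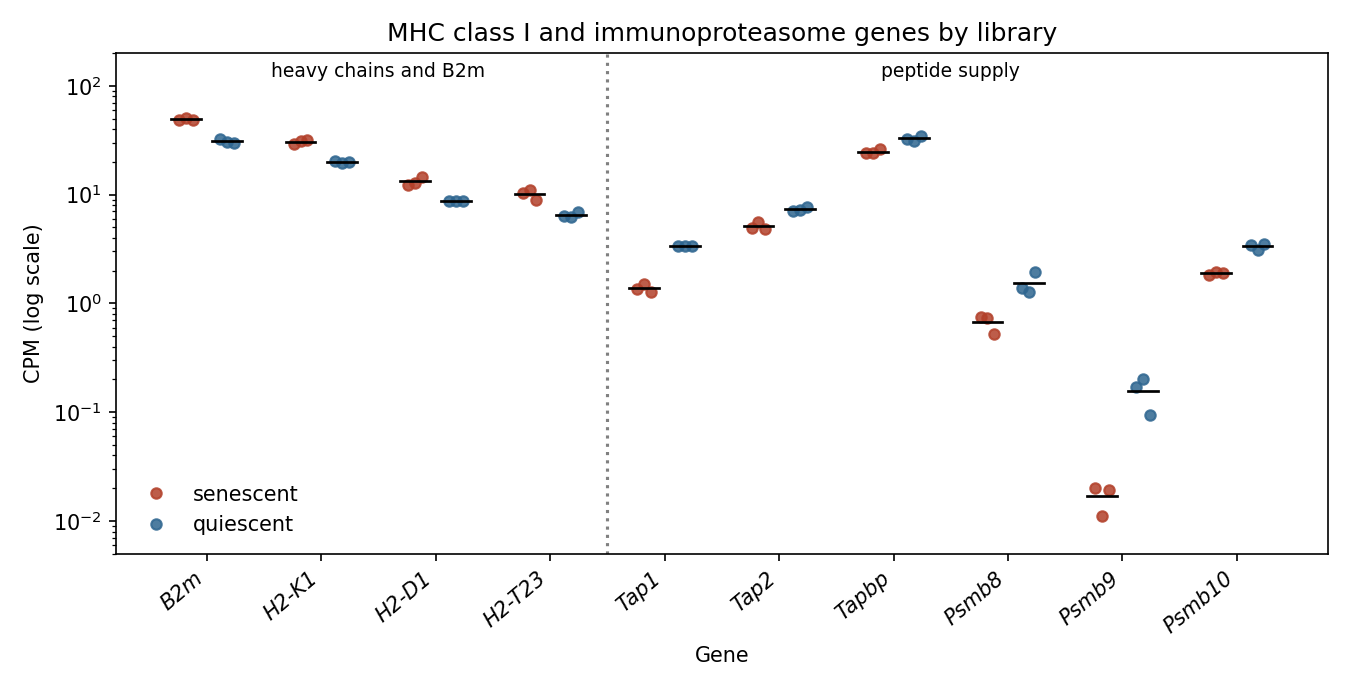
CPM of the 10 genes (log scale) in each library, senescent left of quiescent, with a bar at the mean of 3 libraries. The 4 genes left of the dotted line lie higher in senescent libraries and the 6 genes right of it lie lower; Psmb9 has only 1 or 2 counts in each senescent library.

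Of the 10 genes, 8 lie in or near the MHC on chromosome 17, while B2m (122147686 to 122153083) is on chromosome 2 and Psmb10 (105935735 to 105938444) on chromosome 8, in the GENCODE M21 annotation of GRCm38. Psmb9, Tap1, Psmb8 and Tap2 follow one another within 34335 bases of chromosome 17 (34181987 to 34216321). H2-K1 (33996017 to 34000347) and Tapbp (33915899 to 33929292) lie to one side, and H2-D1 (35262730 to 35267499) and H2-T23 (36029773 to 36032855) to the other. RefSeq promoter windows on GRCm38.p6, from 250 bases before to 50 after the start site, were matched for 9 of the 10 genes; Tap2 was not matched. The windows are shown because these stretches hold the known control elements of class I genes. Capitals mark 4 motifs, searched on both strands: the core of the interferon-stimulated response element (AANNGAAA), the gamma-activated site (TTCNNNGAA), the kappa B motif and the CCAAT box (CCAAT). Of 32851 promoter windows of this length, 23.9% hold the response element core, 8.30% the gamma-activated site, 4.51% the kappa B motif and 37.4% the CCAAT box. The 4 genes of the molecule read as follows, 5′ to 3′ on the gene's own strand.
B2m, chr2:122147437-122147736, plus strand: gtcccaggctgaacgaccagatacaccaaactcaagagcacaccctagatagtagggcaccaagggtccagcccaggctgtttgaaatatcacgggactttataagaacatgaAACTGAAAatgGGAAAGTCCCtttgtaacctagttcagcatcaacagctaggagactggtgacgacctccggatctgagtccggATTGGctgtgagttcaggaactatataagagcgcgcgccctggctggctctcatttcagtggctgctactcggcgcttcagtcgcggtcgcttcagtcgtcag
H2-K1, chr17:34000298-34000597, minus strand: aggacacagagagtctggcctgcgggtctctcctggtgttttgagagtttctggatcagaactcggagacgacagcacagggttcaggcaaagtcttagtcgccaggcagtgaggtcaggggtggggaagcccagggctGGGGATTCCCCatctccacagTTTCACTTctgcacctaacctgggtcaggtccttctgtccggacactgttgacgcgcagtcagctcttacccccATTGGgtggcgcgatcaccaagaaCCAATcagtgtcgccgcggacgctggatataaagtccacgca
H2-D1, chr17:35262844-35263143, plus strand: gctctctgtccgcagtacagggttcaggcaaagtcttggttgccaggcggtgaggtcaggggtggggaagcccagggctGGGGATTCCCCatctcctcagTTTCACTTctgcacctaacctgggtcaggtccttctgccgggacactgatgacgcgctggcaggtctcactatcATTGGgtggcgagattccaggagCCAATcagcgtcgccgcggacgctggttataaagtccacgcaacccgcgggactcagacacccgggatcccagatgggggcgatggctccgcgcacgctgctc
H2-T23, chr17:36032652-36032951, minus strand: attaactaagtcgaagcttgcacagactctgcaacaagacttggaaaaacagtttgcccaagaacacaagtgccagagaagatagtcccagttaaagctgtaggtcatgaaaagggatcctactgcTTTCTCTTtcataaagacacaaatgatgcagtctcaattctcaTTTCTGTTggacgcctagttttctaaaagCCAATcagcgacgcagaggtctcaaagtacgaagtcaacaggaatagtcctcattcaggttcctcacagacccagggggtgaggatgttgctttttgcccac
Among the supply genes, the windows of Tap1 and Psmb9 are largely the same stretch read from opposite strands, since the start sites are 226 bases apart and the windows overlap over 275 bases. Tap1 and Psmb8 read as follows.
Tap1, chr17:34187306-34187605, plus strand: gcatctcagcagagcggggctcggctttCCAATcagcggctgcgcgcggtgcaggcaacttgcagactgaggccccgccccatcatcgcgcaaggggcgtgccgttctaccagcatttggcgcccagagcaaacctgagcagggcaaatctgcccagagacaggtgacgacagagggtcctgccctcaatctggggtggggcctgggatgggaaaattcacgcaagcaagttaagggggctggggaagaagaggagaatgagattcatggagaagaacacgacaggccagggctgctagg
Psmb8, chr17:34197945-34198244, plus strand: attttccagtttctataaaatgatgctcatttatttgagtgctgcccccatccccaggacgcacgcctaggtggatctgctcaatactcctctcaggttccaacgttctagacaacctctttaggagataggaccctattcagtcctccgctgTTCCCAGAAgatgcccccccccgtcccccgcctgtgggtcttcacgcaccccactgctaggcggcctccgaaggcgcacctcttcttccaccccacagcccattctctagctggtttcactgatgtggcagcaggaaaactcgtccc
The windows of all 4 genes of the molecule held the response element core and a CCAAT box. The kappa B motif was present in the windows of B2m, H2-K1 and H2-D1. In H2-K1 and H2-D1 it was matched at 2 overlapping positions within a stretch of 47 bases that is identical between them, from -141 to -95 in H2-K1 and from -201 to -155 in H2-D1, counted from the start site. Of the 5 supply genes with a window, Tap1, Tapbp and Psmb9 held a CCAAT box and Psmb8 a gamma-activated site, and the Psmb10 window held none of the 4 motifs. These matches describe letters in the windows and were not tested against the expression values.

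B2m, the light chain shared by all class I molecules, had the highest CPM of the 10 in senescent libraries. In quiescent libraries Tapbp averaged 32.8 CPM and B2m 31.0 CPM. B2m had 48.5, 50.8 and 48.5 CPM in senescent libraries, against 32.5, 30.6 and 29.9 CPM in quiescent libraries. The 3 senescent values lay close together and well above the quiescent ones, with means of 49.3 ± 1.33 and 31.0 ± 1.36 CPM (SD, n = 3 each). Its log2 fold change was 0.67 with a standard error of 0.05 (edgeR adjusted p = 2.16e-07). H2-K1, a classical heavy chain that presents peptides to CD8 T cells, had 29.0, 30.8 and 31.8 CPM in senescent libraries, against 20.2, 19.6 and 19.9 CPM in quiescent libraries. H2-D1, the other classical heavy chain, had 12.3, 12.8 and 14.5 CPM in senescent libraries, against 8.78, 8.70 and 8.74 CPM in quiescent libraries. Senescent replicate 3 was the highest for both heavy chains. The log2 fold changes were 0.62 ± 0.05 (SE) for H2-K1 and 0.60 ± 0.07 for H2-D1, with edgeR adjusted p of 4.23e-07 and 6.82e-06. H2-T23 encodes the heavy chain of Qa-1, a nonclassical molecule read by the NKG2A receptor of NK cells. It had 10.3, 11.01 and 8.87 CPM in senescent libraries, against 6.38, 6.22 and 6.88 CPM in quiescent libraries, and here senescent replicate 3 was the lowest of its group. The log2 fold change of H2-T23 was 0.63 ± 0.08 (SE; edgeR adjusted p = 2.50e-05). Of annotated 100-base stretches, 0.957% of H2-K1, 3.59% of H2-D1 and 3.15% of H2-T23 also occur in another gene, and how such reads were counted is not known; alleles of another strain than the reference were not examined. Against a 1.5-fold change tested directly with edgeR's glmTreat, 0 of the 4 passed (adjusted p = 0.0501 for B2m, 0.267 for H2-K1, 0.468 for H2-D1 and 0.300 for H2-T23), and 1, B2m, had an unadjusted p under 0.05. Over all tested genes 2138, or 15.2%, passed that test as higher.

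TAP is a pair of proteins encoded by Tap1 and Tap2. Tap1 had 1.35, 1.52 and 1.28 CPM in senescent libraries, against 3.38, 3.34 and 3.36 CPM in quiescent libraries. No senescent library reached the level of any quiescent one, and its log2 fold change was -1.28 ± 0.09 (SE; edgeR adjusted p = 1.49e-07). Tap2 had 4.93, 5.65 and 4.84 CPM in senescent libraries, against 7.02, 7.19 and 7.71 CPM in quiescent libraries, a smaller gap. Its log2 fold change was -0.51 ± 0.08 (SE; edgeR adjusted p = 8.1e-05). Tapbp encodes tapasin, which holds empty class I molecules beside TAP. It had 23.9, 24.2 and 26.4 CPM in senescent libraries, against 32.5, 30.9 and 34.8 CPM in quiescent libraries. Tapbp showed the smallest change of the 6 supply genes, with a log2 fold change of -0.40 ± 0.06 (SE; edgeR adjusted p = 7.09e-05). Annotated exons on the opposite strand overlap 24.9% of the exon bases of Tapbp (Gm19412) and 14.1% of those of Tap2 (Gm15821). The sources used here do not say whether counting used strand. Exons of Zbtb22, on the same strand, overlap a further 4.11% of the exon bases of Tapbp.

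The immunosubunits were low in both groups and lower in senescent cells. Psmb8, whose subunit replaces that of Psmb5, had 0.751, 0.726 and 0.525 CPM in senescent libraries, against 1.39, 1.27 and 1.93 CPM in quiescent libraries. Senescent replicate 3 was the lowest of the 6 and quiescent replicate 3 the highest; the log2 fold change was -1.19 ± 0.19 (SE; edgeR adjusted p = 1.76e-04) and -1.03 without senescent replicate 3. Psmb10, whose subunit replaces that of Psmb7, had 1.83, 1.92 and 1.90 CPM in senescent libraries, against 3.45, 3.10 and 3.53 CPM in quiescent libraries. Its groups were tight and well apart, with a log2 fold change of -0.83 ± 0.09 (SE; edgeR adjusted p = 3.96e-06). Psmb9, whose subunit replaces that of Psmb6, had 2, 1 and 2 counts in senescent libraries, against 18, 24 and 10 counts in quiescent libraries. Only its quiescent libraries met the filter on low counts, so the filter favoured a fall. Summed over libraries and scaled by depth, the senescent rate was 0.109 times the quiescent one, with an exact 95% interval of 0.0339 to 0.271 that covers counting error only. Its fitted log2 fold change of -3.11 (edgeR adjusted p = 1.83e-04) depends on the prior count at such depth. Psmb9 and Tap1 share 212 exon bases on opposite strands, 5.79% of the exon bases of Psmb9 and 3.87% of those of Tap1. Exons of Gm20496 on the opposite strand overlap 14.7% of those of Psmb8. Against a 1.5-fold change tested directly, 4 of the 6 supply genes passed as lower, Tap2 and Tapbp being the exceptions, where 17.5% of all tested genes passed as lower.

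Levels of different genes were set side by side per kilobase of the principal coding transcript. In senescent libraries the order was B2m (57.3 ± 1.55 CPM per kilobase, SD, n = 3), H2-K1 (18.9 ± 0.874), Tapbp (8.57 ± 0.479), H2-T23 (6.83 ± 0.738), H2-D1 (6.28 ± 0.550), Tap2 (1.49 ± 0.130), Psmb10 (1.44 ± 0.0359), Tap1 (0.469 ± 0.0412), Psmb8 (0.410 ± 0.0763) and Psmb9 (0.0125 ± 0.00366). Within that order H2-T23 and H2-D1, Tap2 and Psmb10, and Tap1 and Psmb8 lay within their spread. In quiescent libraries Psmb10 (2.56 ± 0.173 CPM per kilobase) stood above Tap2 (2.12 ± 0.105), and H2-K1 (12.3 ± 0.169) stood close to Tapbp (11.3 ± 0.669). B2m per kilobase of principal transcript was 3.04 times H2-K1 in senescent and 2.93 times in quiescent libraries, and 5.51 and 5.32 times per kilobase of the union of all annotated exons. Dividing by the union of exons also turned H2-D1 and H2-T23 round in both groups (5.12 and 3.48 CPM per kilobase in senescent libraries, 3.39 and 2.25 in quiescent libraries), and H2-K1 and Tapbp in quiescent libraries (6.78 and 9.03 CPM per kilobase).

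Ratios within a library do not depend on how libraries are scaled, and 5 were compared. The Psmb8 to Psmb5 ratio of counts was 0.103, 0.0878 and 0.0660 in senescent libraries, against 0.274, 0.279 and 0.398 in quiescent libraries. Every senescent ratio lay below every quiescent one, and the log2 difference was -1.89, a 3.71-fold lower ratio in senescent libraries. The Psmb10 to Psmb7 ratio was 0.0464, 0.0440 and 0.0458 in senescent libraries, against 0.144, 0.129 and 0.144 in quiescent libraries. That is a 3.06-fold lower ratio in senescent libraries (log2 difference -1.61), and the spread inside either group was small. Exons of Nek6 on the opposite strand overlap 11.8% of the exon bases of Psmb7. For Psmb9 to Psmb6 the mean ratio was 7.63e-04 ± 2.25e-04 in senescent and 0.0121 ± 0.00481 in quiescent libraries (SD, n = 3 each), resting on the few Psmb9 counts. Tap1 to Tap2 was 0.274, 0.269 and 0.265 in senescent libraries, against 0.481, 0.465 and 0.436 in quiescent libraries, a log2 difference of -0.77, with every senescent ratio below every quiescent one. For these 4 ratios the exact two-sided permutation test gave p = 0.1, the smallest that 3 against 3 allows (adjusted over the 5 ratios, p = 0.125). The B2m to H2-K1 ratio was 1.67, 1.65 and 1.53 in senescent libraries and 1.61, 1.56 and 1.499 in quiescent libraries. These overlapped, with a log2 difference of 0.05, standard deviations of 0.07 and 0.05 in the senescent and quiescent groups, and an exact permutation p = 0.3. Per kilobase of principal transcript, Psmb8 made up 4.50% ± 0.929 of Psmb8 plus Psmb5 in senescent and 14.8% ± 2.75 in quiescent libraries (SD, n = 3 each). For Psmb10 in Psmb10 plus Psmb7 the shares were 3.86% ± 0.102 in senescent and 10.95% ± 0.602 in quiescent libraries. With the union of exons as length, the shares in senescent and quiescent libraries were 2.22% and 7.75% for Psmb8 and 8.35% and 21.8% for Psmb10.

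**Figure D2:**
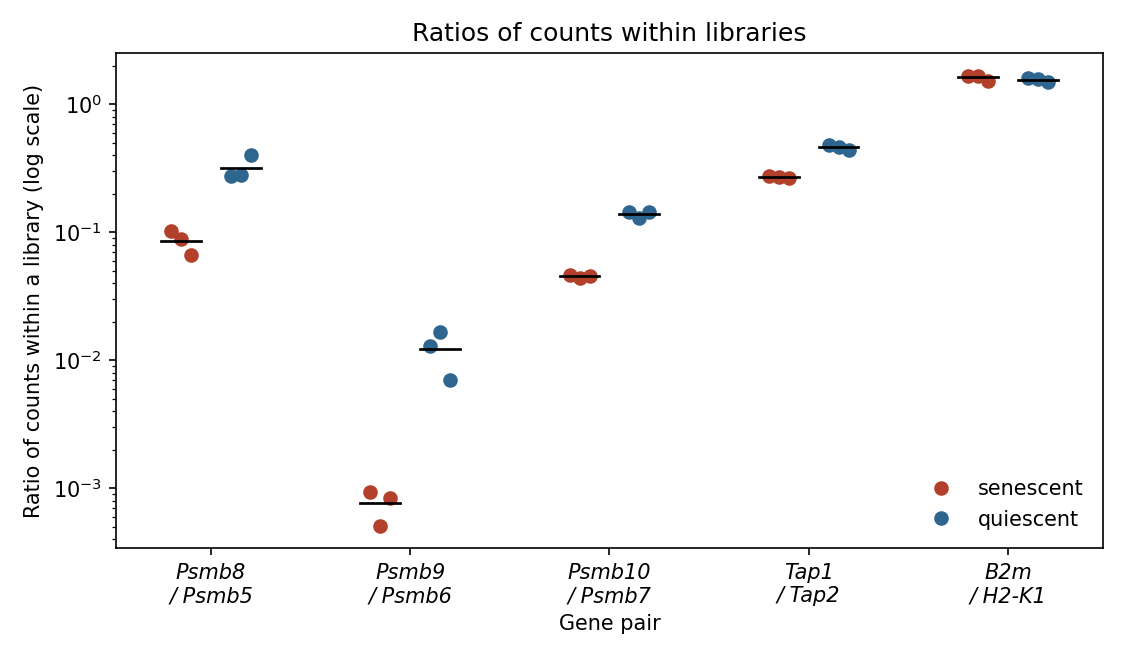
Ratio of counts of 2 genes within each library (log scale), senescent left of quiescent, with a bar at the mean of 3 libraries. The first 4 ratios lie lower in every senescent library, while the B2m to H2-K1 ratios, from 1.499 to 1.672, overlap.

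The constitutive proteasome rose while the immunosubunits fell. Psmb5, Psmb6 and Psmb7, the constitutive catalytic genes, all rose, with log2 fold changes of 0.70, 0.77 and 0.78. Psmb7 had 39.5, 43.7 and 41.6 CPM in senescent libraries, against 23.9, 24.03 and 24.6 CPM in quiescent libraries. All 11 other genes of the 20S core rose too (median log2 fold change 0.62), led by Psma5 (0.77), Psma7 (0.77) and Psma2 (0.70). The 19S regulatory particle unfolds ubiquitinated proteins and feeds them to the core. All 21 genes listed for it rose (median 0.65), among them Psmd5, Psmd9 and Psmd10, which encode assembly chaperones. Psmd8 led them, with 57.4, 55.9 and 59.1 CPM in senescent libraries, against 22.6, 21.6 and 21.2 CPM in quiescent libraries, ahead of Psmd11 (0.93) and Psmd14 (0.89). In all, 35 of 35 of these genes passed as higher, against 36.7% of tested genes. Scaled by library totals, 3 catalytic, 8 other core and 16 regulatory genes passed as higher and 0 as lower. Against a 1.5-fold change, 2 of the 3 catalytic, 3 of the 11 other core and 7 of the 21 regulatory genes passed.

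Among proteasome activators, Psme1 and Psme2 fell while Psme3 and Psme4 rose. Psme1, which encodes the alpha subunit of the interferon-inducible activator PA28, had 4.11, 4.49 and 3.75 CPM in senescent libraries, against 8.55, 9.33 and 9.83 CPM in quiescent libraries. Its log2 fold change was -1.17 ± 0.08 (SE; edgeR adjusted p = 1.29e-07). Psme2, for the beta subunit, fell by 0.72 on the log2 scale; it was named after its values were seen, and reads can be shared with its copy Psme2b. Psme3, for the nuclear activator PA28 gamma, rose by 0.66, and Psme4, for PA200, by 0.39, which was not past the test under library totals (0.09, edgeR adjusted p = 0.324). Pomp, the chaperone of core assembly, rose by 0.65. In this list of 9 genes, 3 rose, 2 fell and 4 did not pass. Over all tested genes 36.7% rose and 37.8% fell, which is also the background of the lists that follow.

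The other genes of peptide handling had no shared direction, with 6 of 12 higher, 3 lower and 3 not passing, a share passing near the 74.5% of all tested genes. Those that fell were Tapbpl (-0.98), which encodes the tapasin-related editor TAPBPR, Blmh (-0.96), a cytosolic peptidase, and Erap1 (-0.60), the aminopeptidase that trims peptides in the endoplasmic reticulum. Tapbpl had 1.58, 1.73 and 1.66 CPM in senescent libraries, against 3.39, 3.19 and 3.24 CPM in quiescent libraries. The peptidase genes Nrd1 (0.69) and Thop1 (0.52) rose, as did Sec61a1 (0.57), a subunit of the translocon. Calr, for the lectin chaperone calreticulin, was named after its values were seen. It had a log2 fold change of 0.09 that did not pass (edgeR adjusted p = 0.115). Under library totals the value was -0.21 and Calr passed as lower (edgeR adjusted p = 0.0312). Under that scaling 3 genes of the list passed as higher and 6 as lower.

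**Figure D3:**
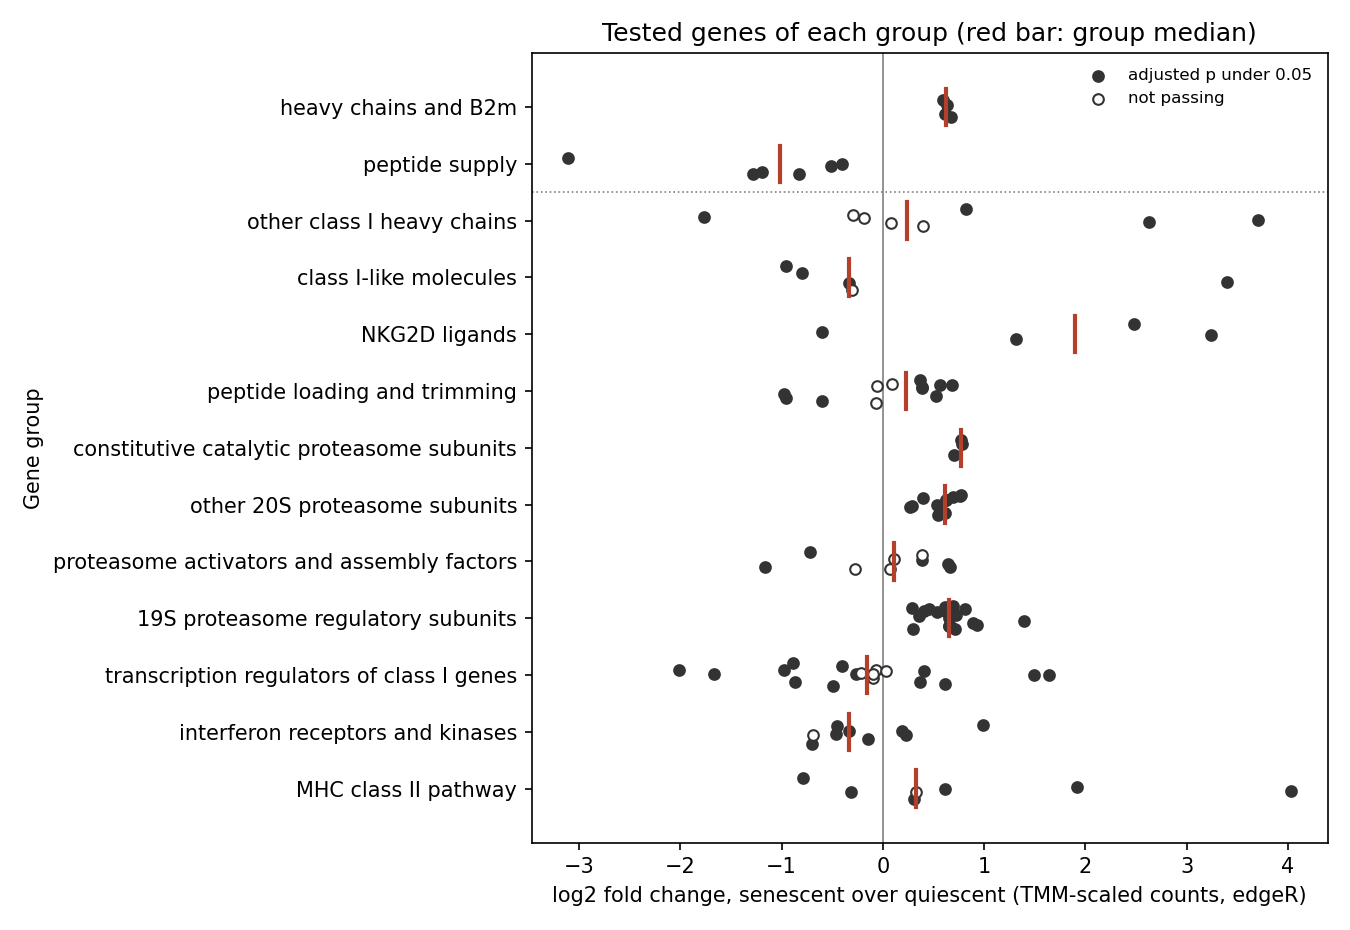
log2 fold change, senescent over quiescent, of each tested gene in 13 groups; filled points passed edgeR's test at an adjusted p under 0.05, open points did not, and the red bar is the group's median. The 4 genes of the molecule and the 3, 11 and 21 genes of the constitutive proteasome lie to the right of 0, and the 6 supply genes lie to the left.

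Further heavy chains did not follow H2-K1 and H2-D1 as a group. Of 23 listed, 21 were in the table and 8 passed the filter on low counts; 3 rose, 1 fell and 4 did not pass. The following were named after their values were seen. H2-Q4, a heavy chain gene of the Qa region, was the most abundant, with 4.10, 5.10 and 4.82 CPM in senescent libraries and 4.32, 4.15 and 4.74 CPM in quiescent libraries, and these overlapped. Its log2 fold change of 0.09 did not pass (edgeR adjusted p = 0.409). Under library totals the value was -0.21 and H2-Q4 passed as lower (edgeR adjusted p = 0.0469). H2-Q6 had 26, 33 and 41 counts in senescent libraries, against 6 in each quiescent library, and a log2 fold change of 2.63. H2-Q5, annotated as a polymorphic pseudogene, had 22, 28 and 35 counts in senescent libraries, against 2, 2 and 3 counts in quiescent libraries. H2-T24 rose by 0.83 and H2-M5 had a log2 fold change of -1.77 from at most 29 counts in any library. H2-Q6 and H2-Q5 met the filter on low counts through the senescent libraries only, and H2-M5 through the quiescent ones only. The filter thus favoured the direction that these genes show, and their calls add little to the count of the list. Reads can be shared among related heavy chain genes. How far this holds for the genes named here was not measured, so their counts are uncertain.

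Class I-like molecules and ligands of NKG2D, an activating receptor of NK and T cells, were also listed. Among the ligands, 4 of 8 genes were tested, of which 3 rose and 1 fell. Raet1e had 2.44, 2.18 and 2.80 CPM in senescent libraries, against 0.386, 0.430 and 0.519 CPM in quiescent libraries, a log2 fold change of 2.48 ± 0.15 (SE). Raet1d rose by 1.32 while Ulbp1 fell by 0.60. H60b, named after its values were seen, had 62, 49 and 59 counts in senescent libraries, against 4, 8 and 8 counts in quiescent libraries, a log2 fold change of 3.24. It met the filter on low counts through the senescent libraries only, which favoured a call as higher. Reads can be shared within the Raet1 family, and the annotated Raet1e model (chromosome 10, 22158569 to 22374139) spans both H60b and Raet1d. Of 5 tested class I-like genes, 1 rose and 3 fell. Procr, the endothelial protein C receptor, rose by 3.40. Fcgrt, whose product pairs with beta-2-microglobulin as the neonatal Fc receptor, fell by 0.95, Cd1d1, which presents lipids, by 0.80, and Mr1, which presents vitamin B metabolites, by 0.33. In the MHC class II pathway 7 of 13 genes were tested, with 4 higher, 2 lower and 1 not passing. H2-DMb1 (0.61) and Ifi30 (0.31) rose, though Ifi30 did not pass under library totals (0.02, edgeR adjusted p = 0.878). H2-DMa (-0.32, edgeR adjusted p = 0.0444) and Ciita (-0.79, edgeR adjusted p = 0.0211) passed as lower, but with DESeq2 neither passed, and leaving out any of the 6 libraries left 1 gene of the list passing as lower. H2-Ab1, named with Ciita after its values were seen, had 96, 82 and 73 counts in senescent libraries, against 7, 7 and 3 counts in quiescent libraries. H2-Ab1 too met the filter on low counts through the senescent libraries only.

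Of 18 listed regulators of class I transcription, 5 rose and 8 fell, a share passing that is near the 74.5% of all tested genes. Stat2, a transcription factor of type I interferon signalling, had 7.10, 6.95 and 5.71 CPM in senescent libraries, against 27.2, 25.98 and 26.5 CPM in quiescent libraries. Its log2 fold change was -2.01 ± 0.08 (SE; edgeR adjusted p = 1.07e-09), with senescent replicate 3 the lowest. Irf9, which acts with it and was named after its values were seen, fell by 0.86. Irf1 had 4.55, 4.41 and 5.92 CPM in senescent libraries, against 9.24, 8.85 and 9.59 CPM in quiescent libraries, a log2 fold change of -0.89 ± 0.10 (SE; edgeR adjusted p = 1.14e-05). Nlrc5, the class I transactivator, had 0.962, 0.838 and 1.18 CPM in senescent libraries, against 1.24, 1.48 and 1.22 CPM in quiescent libraries. That difference was small, with a log2 fold change of -0.40 ± 0.14 (SE; edgeR adjusted p = 0.0251), and it did not pass with DESeq2 (adjusted p = 0.0529) or without senescent replicate 1, senescent replicate 2 or quiescent replicate 2 (edgeR adjusted p = 0.0758, 0.0891 and 0.119). Rfx5, a subunit of the RFX complex that binds class I and class II promoters, fell by 0.97. The listed NF-kappa B subunit genes rose. Relb had 8.87, 9.47 and 12.1 CPM in senescent libraries, against 3.00, 3.26 and 3.47 CPM in quiescent libraries. Nfkb1 rose by 1.497 and Rela by 0.62, with senescent replicate 3 the highest of its group in Relb, Nfkb1 and Rela. Named after their values were seen, Nfya (0.41) and Atf1 (0.37) also rose, while Stat3 (-0.50) and Nfyc (-0.27) fell and Nfyb (0.03), Irf2 (-0.06), Rfxank (-0.22), Rfxap (-0.09) and Creb1 (-0.09) did not pass. Genes of the NF-Y, IRF and RFX groups thus did not all do the same. Under library totals 3 of the 18 rose and 13 fell.

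Of 9 genes listed with the interferon receptors and kinases, 3 rose and 5 fell, against 36.7% of all tested genes higher and 37.8% lower. The list also holds genes that are neither: the phosphatase gene Ptpn2, counted among the 3, and the inhibitor gene Socs1, which did not pass. Under library totals 1 of the 9 rose. Ifngr2, a chain of the interferon-gamma receptor, rose by 0.99, while Ifngr1, the other chain of that receptor, fell by 0.33. Ifnar2 and Ifnar1, the chains of the type I interferon receptor, fell by 0.70 and 0.46 and the kinase gene Tyk2 by 0.45. The kinase gene Jak2 fell by 0.15 (edgeR adjusted p = 0.0281). Ifngr1 and Jak2 were named after their values were seen. The rises of Ptpn2 (0.23) and Jak1 (0.19) did not pass with upper quartile factors and turned round under library totals (-0.07 and -0.11).

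**Figure D4:**
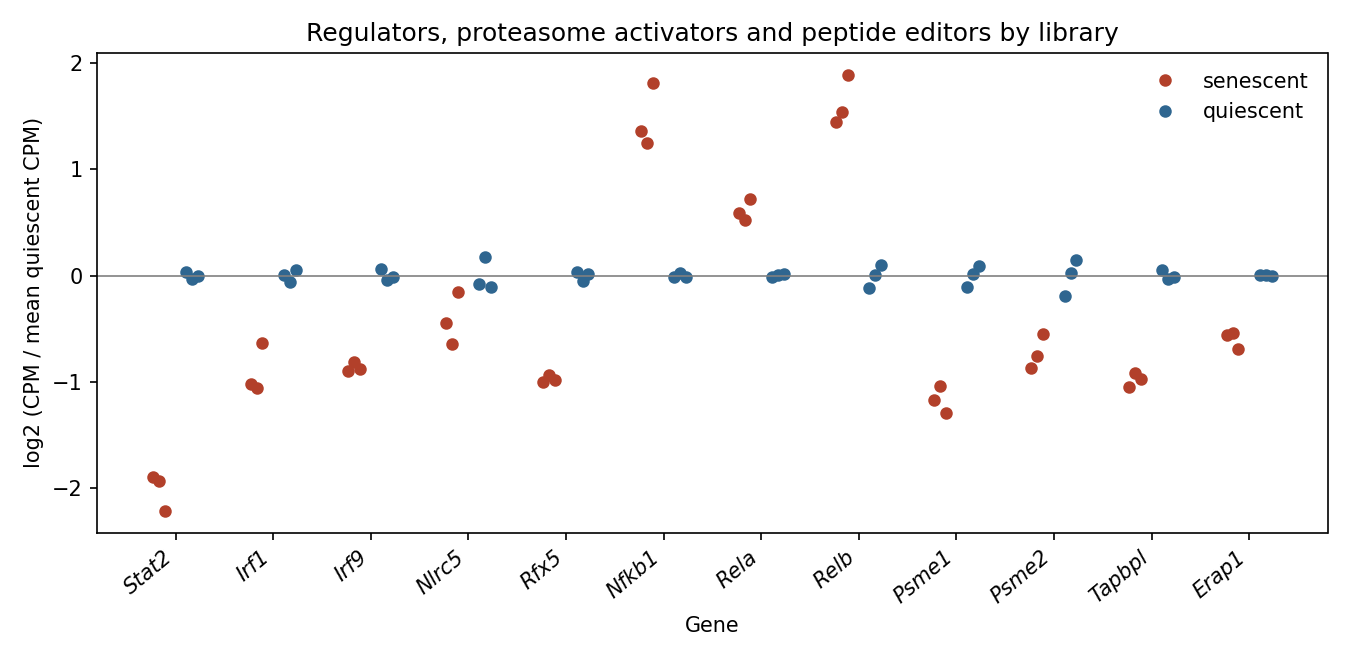
log2 of CPM over the mean quiescent CPM for 12 regulators, proteasome activators and peptide editors, senescent left of quiescent, 1 point per library. The NF-kappa B genes Nfkb1, Rela and Relb lie above 0 in all 3 senescent libraries and the other 9 genes lie below 0.

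The genes closest to B2m and to Tap1 were sought among the 10402 tested genes whose log2 CPM averaged 0 or more, by the Euclidean distance of log2 CPM over the 6 libraries after centring on the quiescent mean. Closest to B2m were Sec13 (0.07 on the log2 scale), Pomp (0.08), Map2k4 (0.09), Rhob (0.09) and Inppl1 (0.09). Pomp is the assembly chaperone of the proteasome core and Sec13 a coat protein of vesicles that leave the endoplasmic reticulum. Closest to Tap1 were Gpd1l (0.08), Acadsb (0.10), Pml (0.10), Slc4a4 (0.10) and Shisa6 (0.10), of which Pml is a known interferon-stimulated gene. Centring on the quiescent mean keeps the size of the difference between the groups in this distance.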

How the data were processed

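The authors deposited whole-number counts per gene symbol for 6 libraries of ribosomal RNA-depleted RNA, made per the labels' protocols with a directional kit and read as paired ends of 100 bases. The submitters' processing notes name mm10, limma 3.46.0 and edgeR 3.32.1 without a role; no source used here gives the aligner, the counter or the fate of multiply mapping reads. The members and gene lists were chosen with earlier results of these data known, and the letters of the promoter motifs were settled with the windows in view.

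All genes were fitted together in R 4.3.3 with edgeR 4.0.16. Low genes were removed with filterByExpr (minimum count 10), libraries were scaled by TMM, and robust quasi-likelihood F tests were adjusted by Benjamini-Hochberg over 14065 genes, with a threshold of 0.05. The fit was tested on simulated data with known changes in few genes, balanced up and down, and the same dispersion for all genes. In the real data 74.5% of tested genes passed, so the simulation cannot check the scaling or the error rate at that extent of change. Each standard error is the size of the log2 fold change over the root of F. Ratios used exact two-sided permutation tests (scipy 1.17.1). Named genes were the members, the genes of the ratios, up to 3 higher and 3 lower genes of each list with log2 CPM averaging 0 or more, Nlrc5, Irf1 and the 5 nearest genes to B2m and to Tap1; others are marked as named after their values were seen. Log2 CPM used 2 added counts. Lengths and positions came from GENCODE M21, with 192 of 199 symbols matched, and promoters from RefSeq. Alternatives were RLE and upper quartile factors, library totals, no ribosomal rows, no filter, DESeq2 1.42.0, limma-voom 3.58.1, glmTreat, a replicate block and each library left out. The union of exons as length was added after seeing the data. Some genes covered by these rules are not reported here. The repeat table was not used here.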

Additional observations from a re-analysis of the deposited data

How the results depend on the processing

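All 10 member genes kept their direction and their side of the threshold under the 14 alternatives other than glmTreat, with the highest adjusted p at 0.00613 (H2-D1, edgeR with library totals). Without any one library 4 members passed as higher and 6 as lower, and 4860 to 5331 of all tested genes passed as higher and 4901 to 5416 as lower. Under library totals 2952 genes passed as higher and 7435 as lower, against 5158 and 5316 with TMM. Against a 1.5-fold change (edgeR's glmTreat), 2138 genes passed as higher and 2460 as lower. Of the 10 members, 0 then passed as higher, and so 0 of the 4 genes of the molecule, of which 1 had an unadjusted p under 0.05; with DESeq2, which tested for any change, 4 passed. The next counts cover 73 of the named genes. Among those left out are Nfya, Atf1, Stat3, Nfyc, Nfyb, Irf2, Rfxank, Rfxap, Creb1, Ifngr1 and Jak2. Of 1022 values of the 73 genes under the alternatives other than glmTreat, 997 kept their call, 19 lost it and 6 turned round. These were Ptpn2 (-0.0701), Jak1 (-0.1136), H2-Q4 (-0.2139) and Calr (-0.2091) under library totals, and H2-Q4 (-0.0091) and Calr (-0.0031) with upper quartile factors. The median of all tested genes was -0.32 and -0.12 under these scalings. H2-Q4 and Calr passed as lower under library totals (edgeR adjusted p = 0.0469 and 0.0312). Under library totals 3 further heavy chains passed as lower, in place of 1. In the list of interferon receptors and kinases 1 gene then passed as higher, in place of 3. With no filter on low counts 5 further heavy chains passed as higher, in place of 3. With upper quartile factors 5 peptide loading genes passed as lower, in place of 3.

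The ratios kept their sign without any one library: -2.03 to -1.72 for Psmb8 to Psmb5, -4.30 to -3.68 for Psmb9 to Psmb6, -1.67 to -1.59 for Psmb10 to Psmb7, -0.81 to -0.74 for Tap1 to Tap2 and 0.03 to 0.10 for B2m to H2-K1. Deviations from the group mean correlated at 0.049, -0.003 and 0.063 between libraries of the same number, and at -0.103 to 0.06 between unlike numbers. With 3 libraries per group this cannot settle whether the numbers mark a shared culture. A replicate block gave 5124 higher and 5281 lower genes and left every member's call as it was. It took the call of H2-DMa (edgeR adjusted p = 0.0527). Depth limits Psmb9 most, at 5 counts over the senescent libraries and 52 over the quiescent ones.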
